A study of Homo sapiens with 4 samples.

Results

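The genes examined were 9 genes of the neuronal cytoskeleton and of growing neurites: NEFH, NEFM, NEFL, INA and PRPH, which encode intermediate filament proteins of neurons, MAP2 and TUBB3, which encode microtubule proteins, and STMN2 and GAP43, which encode growth cone proteins. They were chosen by name, and their chromatin was read from peaks of accessible chromatin that overlapped the 3 kb on either side of any annotated transcription start of a gene (promoter peaks) or lay within 50 kb of the gene (near peaks). By this rule 57 of 47610 control peaks and 50 of 42682 sgSNHG1 peaks belonged to the 9 genes. NEFM and NEFL are neighbours, and 4 peaks of each list fell within 50 kb of both. The peaks came from ATAC-seq of SK-N-BE(2)C, a human neuroblastoma cell line with amplified MYCN. The control group (labelled wildtype, 2 replicates) received a non-targeting gRNA. The sgSNHG1 group (2 replicates) received gRNAs against SNHG1, a long non-coding RNA gene, and is labelled as an SNHG1 knockout. The study states that SNHG1 was not fully knocked out and that its expression was reduced. Per the treatment protocol, which all samples share, Cas9 and dual sgRNAs were transfected with a reporter, cells were selected with puromycin, and clones grown from single sorted cells were expanded. The study describes its control as a single clone and several sgSNHG1 clones, and which of the latter were used for ATAC-seq was not given in the sources used here, so that a difference between clones and an effect of the guides cannot be told apart.

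Neurofilaments are heteropolymers of a light, a medium and a heavy chain, joined by internexin in central neurons or by peripherin in peripheral ones, and they set the calibre of axons. Microtubules of neurites contain the neuronal beta-tubulin and are stabilized by MAP2 in dendrites, while stathmin-2 and GAP-43 act at the growing tip. Neuroblastoma arises from sympathetic precursors, and these genes are widely used as markers of the neuronal or differentiated state of such cells.

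Each group is a single list of peaks called on its pooled replicates, so the spread between replicates is unknown for every value below and the groups were not tested against each other. The fold enrichment of a peak is the number of fragments stacked at its summit, the pileup, over the local background of the same list. Before the division 1 is added to both. A gene takes the value of its most enriched promoter peak. The standard error (SE) given with a log2 ratio of sgSNHG1 over control is the Poisson counting error of both pileups and covers counting error only. Near the 9 genes the median pileup was 29 fragments in control and 24 in sgSNHG1, beside 24 and 20 over all peaks of the lists. A log2 ratio beyond 0.5 in either direction was taken as past the fold limit. As a check of the labelled cell type, the adrenergic neuroblastoma markers HAND2, GATA3, ISL1, DBH and PHOX2A had a promoter peak in both lists, and TH had none in either. None of the 3 blood markers and none of the 3 glial markers had one, whereas all 3 epithelial, all 3 fibroblast, 1 of 2 endothelial and 1 of 2 liver markers did, the same genes in both lists, so that an accessible promoter alone did not mark a cell type.

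Each of the 9 genes had at least 1 promoter peak in control and in sgSNHG1. Among the 14317 protein-coding genes with a promoter peak in at least 1 list, 8.47% had it in control alone and 2.77% in sgSNHG1 alone. The highest promoter value was lower in sgSNHG1 for 6 genes and higher for 3, NEFM, MAP2 and TUBB3. Over the 12709 protein-coding genes with a value in both lists, 60.4% were lower. None of the 9 lay at a log2 ratio of -0.5 or below, where 7.33% of protein-coding genes lay, and none at 0.5 or above, where 2.01% lay. The median log2 ratio of the 9 was -0.08, beside -0.07 for the protein-coding genes, and no gene of the 9 differed by more than 2 SE. Their promoter peaks had a lower median than those of the protein-coding genes: control had a median fold enrichment of 5.88 and sgSNHG1 of 5.16, beside 7.87 and 7.37. Fold enrichment divides by the local background. At the near peaks its median was 2.06 times the smallest background of the list in control and 2.20 times in sgSNHG1. Over all peaks it was 1.57 and 1.59 times. The part of local background in the lower promoter values was not tested.

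**Figure D1:**
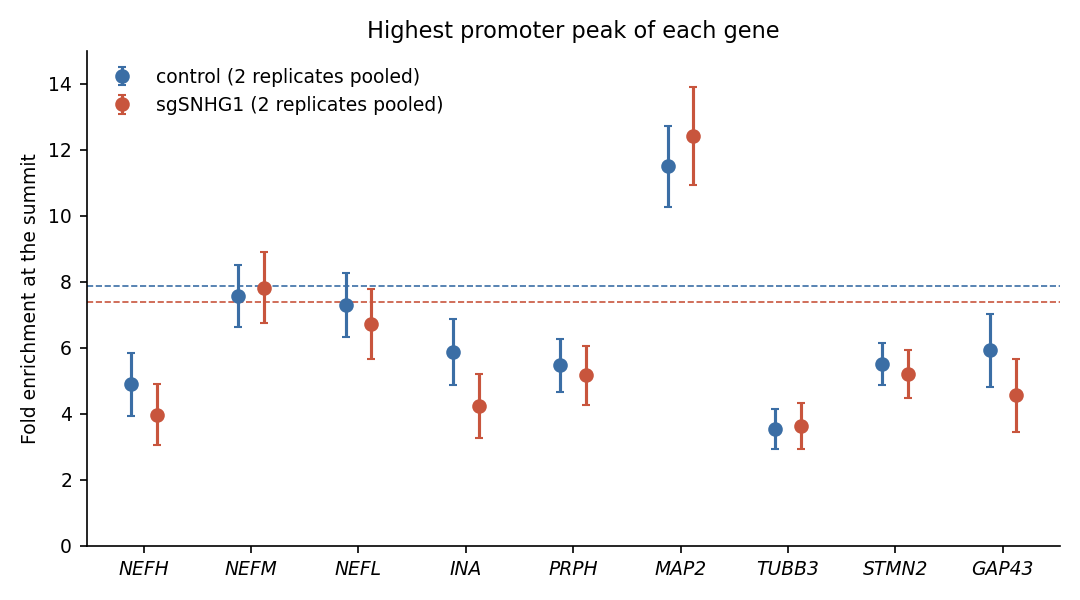
Fold enrichment at the summit of the highest promoter peak of each gene in the pooled control list (blue) and the pooled sgSNHG1 list (red). Bars are the Poisson counting error of the summit pileup (1 SE) and dashed lines are the medians of 12709 protein-coding genes, so that MAP2 stands above both lines in both lists and 6 of the 9 genes stay under 6 in both.

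NEFH encodes the heavy neurofilament chain, the subunit with the long phosphorylated tail. It lies on the plus strand of chromosome 22 at 29480218 to 29491390 (GRCh38) with 1 annotated start, and it had the fewest near peaks of the 9 genes, 2 in control and 1 in sgSNHG1. The shared peak covered coding sequence 735 bp after the start in control and 745 bp after it in sgSNHG1, with a fold enrichment of 4.89 (27 fragments) in control and 3.97 (18 fragments) in sgSNHG1, for a log2 ratio of -0.30 (SE 0.44). The peak over the start itself was in the control list alone, with its summit 69 bp upstream, a fold enrichment of 3.51 and 19 fragments. Its -log10 q was 4.45, so this was a weak call, and the sgSNHG1 list had no peak there.

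INA encodes internexin alpha, a neurofilament subunit that appears early in neuronal development. It lies on the plus strand of chromosome 10 at 103277138 to 103290346 and has 1 annotated start. By the highest peak within 3 kb its promoter had the most negative log2 ratio of the 9 genes, -0.48 (SE 0.41, 95% counting interval -1.28 to 0.33), from a fold enrichment of 5.88 (35 fragments) in control and 4.22 (19 fragments) in sgSNHG1. The peak was 866 bp wide in control, with the summit 132 bp after the start, and 513 bp wide in sgSNHG1, with the summit 483 bp after it. The control peak began at 103276840 and the sgSNHG1 peak at 103277128, so that nearly all of the peak upstream of the start was in the control list alone. The 3 other control peaks within 50 kb had a fold enrichment between 4.09 and 4.80. Those at 103273193 and 103281928 were paired with sgSNHG1 peaks of slightly higher values, with log2 ratios of 0.06 and 0.28. Those at 103241377 and 103273193 lay in introns of NT5C2, and the promoter peak also lay within 3 kb of an NT5C2 start. The sequence upstream of the INA start that the control peak covered is printed because nearly all of it was outside the sgSNHG1 peak. It is chr10:103276840-103277137 on the plus strand, with a GC content of 70.1%. The capitals mark 4 GC boxes (GGGCGG on either strand, the element that Sp1 binds) and 2 E-boxes, CAGCTG and CATCTG. The latter lies on the minus strand and is printed as CAGATG.
INA promoter peak: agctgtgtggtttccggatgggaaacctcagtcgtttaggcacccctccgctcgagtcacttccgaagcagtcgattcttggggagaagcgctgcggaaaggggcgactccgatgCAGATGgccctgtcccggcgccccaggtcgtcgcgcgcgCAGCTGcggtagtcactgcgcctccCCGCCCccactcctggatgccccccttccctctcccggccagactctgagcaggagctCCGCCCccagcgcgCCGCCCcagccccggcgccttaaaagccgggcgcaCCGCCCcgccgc

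PRPH encodes peripherin, the intermediate filament of peripheral and sympathetic neurons. It lies on the plus strand of chromosome 12 at 49295147 to 49298686. The stronger of its 2 promoter peaks lay 1.8 kb upstream, in an exon of the antisense gene TROAP-AS1, and was nearly level, at 5.46 (45 fragments) in control and 5.16 (33 fragments) in sgSNHG1, for a log2 ratio of -0.08 (SE 0.33). The peak closer to the start had a fold enrichment of 3.79 (31 fragments) in control and 2.70 (16 fragments) in sgSNHG1, for a log2 ratio of -0.49, which is the value of PRPH when promoters are limited to 1 kb. Its width of 377 bp in control compared with 96 bp in sgSNHG1, where its -log10 q of 2.01 was the lowest among the near peaks. All 4 pairs near PRPH were lower in sgSNHG1, beside 55.6% of all pairs. Of its 8 control peaks 4 had no counterpart, beside 33.3% of all control peaks. None of its 4 sgSNHG1 peaks was without one, beside 21.8% of all sgSNHG1 peaks. The strongest near peak was the promoter of TROAP, which encodes a spindle protein, at 12.3 in control and 10.1 in sgSNHG1. The DNAJC22 promoter had 6.25 in control and 5.16 in sgSNHG1. The promoter of C1QL4 (5.89, 30 fragments) was a control peak without a counterpart, the only such peak near PRPH with a -log10 q of at least 10.

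NEFM and NEFL, the medium and light chains, lie 32 kb apart on opposite strands of chromosome 8, NEFM at 24913758 to 24919098 on the plus strand and NEFL at 24950955 to 24956721 on the minus strand. Their promoters were the most enriched among the 5 intermediate filament genes in both lists. NEFM had 7.57 (65 fragments) in control and 7.82 (53 fragments) in sgSNHG1, for a log2 ratio of 0.05 (SE 0.27), with the summits 15 and 16 bp after the start. A further NEFM peak around a start within the gene was 5.13 in control and 6.01 in sgSNHG1, for a log2 ratio of 0.23. NEFL had 7.29 (57 fragments) in control and 6.72 (40 fragments) in sgSNHG1, for a log2 ratio of -0.12 (SE 0.30). The NEFL peak was the widest control peak near any of the 9 genes, 1040 bp, and 899 bp in sgSNHG1. Both genes thus had a peak over the start in both lists.

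Upstream of NEFL lay the near pair with the most negative ratio. The control peak at 25000016 to 25000867 (fold enrichment 8.28, 58 fragments) was paired by overlap with an sgSNHG1 peak at 25000596 to 25000828 (3.97, 22 fragments), for a log2 ratio of -1.06 (SE 0.36). The control summit lay under another sgSNHG1 peak, at 25000031 to 25000226 (6.33, 36 fragments), so that the control peak faced 2 separate peaks and the pair did not join the same summits. This was the only near pair beyond 2 SE, 2.38% of the 42, beside 2.68% of all pairs. About 4 kb away the sgSNHG1 list held a peak without a counterpart at 24995700 to 24995848 (6.51, 34 fragments), the only such sgSNHG1 peak near the 9 genes with a -log10 q of at least 10.

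The intermediate filament genes thus ran from INA, with a lower and shorter promoter peak in sgSNHG1, to NEFM, whose peak was level. With SEs of 0.27 to 0.44, neighbours in that order did not differ beyond their counting error. Their control values ranged from 4.89 (NEFH) to 7.57 (NEFM), the 9.53 and 45.8 percentiles of the protein-coding genes.

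MAP2 encodes the microtubule-associated protein of dendrites. It is the longest of the 9 genes, on the plus strand of chromosome 2 at 209424047 to 209734147, with 17 distinct transcript starts, and 4 promoter peaks in each list. All 4 were shared. The peak at the upstream start had a fold enrichment of 10.8 (65 fragments) in control and 9.86 (46 fragments) in sgSNHG1, for a log2 ratio of -0.14. A peak over a start 155 kb into the gene had 9.86 in control and 8.02 in sgSNHG1, for a log2 ratio of -0.30, and a peak over a further start 237 kb into the gene had 5.23 and 4.64, for a log2 ratio of -0.17. The highest was an intronic peak 1.8 kb after that last start, with 11.5 (87 fragments) in control and 12.4 (70 fragments) in sgSNHG1, for a log2 ratio of 0.11 (SE 0.23). MAP2 therefore counted as higher in sgSNHG1 by its intronic peak, while all 3 peaks over its starts were lower. Near it, the promoter of UNC80, which encodes a subunit of a sodium leak channel complex, had 10.8 in control and 7.77 in sgSNHG1, for a log2 ratio of -0.48. Intronic peaks at 209633202 and 209633914 were in the control list alone (7.32 and 4.35), and intronic peaks at 209496072 and 209624682 in the sgSNHG1 list alone (6.11 and 4.78).

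The intronic peak is printed as the site with the highest value among the promoter peaks of the 9 genes in both lists. The bases within 100 bp of its sgSNHG1 summit, chr2:209663233-209663433 on the plus strand, have a GC content of 49.8%, and the capitals mark a CACGTG E-box, the form bound by MYC-family factors, and an AP-1 element (TGANTCA with C or G at N). This E-box occurred in the same window of 4.83% of all sgSNHG1 peaks and the AP-1 element in that of 5.64%.
MAP2 intronic peak: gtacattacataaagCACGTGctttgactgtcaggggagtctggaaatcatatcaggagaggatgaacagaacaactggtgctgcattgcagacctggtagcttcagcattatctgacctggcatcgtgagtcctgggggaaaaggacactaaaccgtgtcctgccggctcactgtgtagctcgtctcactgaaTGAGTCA

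TUBB3 encodes the neuronal class III beta-tubulin. It lies on the plus strand of chromosome 16 at 89921392 to 89938761, with 11 distinct transcript starts. Its promoter had the lowest fold enrichment of the 9 genes in both lists, 3.53 (34 fragments) in control and 3.62 (27 fragments) in sgSNHG1, and the local background at its control peak was 4.05 times that of the genome. These values came from different sites, so that their log2 ratio of 0.04 (SE 0.37) does not compare the same peak. The control peak at 89922801 to 89923252 had no counterpart. An sgSNHG1 peak at 89921773 to 89921903 (3.42, 33 fragments), 11 bp after an annotated start, had none either. The intronic peak that both lists held, at 89925997 in control, had 2.79 (22 fragments) in control and 3.62 in sgSNHG1, for a log2 ratio of 0.38. The bases around the summit of the control peak, chr16:89923039-89923239, are printed as the sequence of the TUBB3 peak that the sgSNHG1 list lacked, with a GC content of 77.6% and a GC box in capitals.
TUBB3 control promoter peak: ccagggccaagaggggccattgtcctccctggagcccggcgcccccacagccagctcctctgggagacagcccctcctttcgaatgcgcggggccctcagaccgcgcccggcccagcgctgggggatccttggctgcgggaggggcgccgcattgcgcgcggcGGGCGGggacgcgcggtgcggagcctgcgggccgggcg

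Around TUBB3 the scale used made a difference. On the scaled pileup, which is the pileup over the genome-wide background of its list and so ignores the local background, the median log2 ratio of its 8 pairs was 0.40, against 0.06 on fold enrichment. The pairs in the 10 Mb around TUBB3, without the 50 kb next to it, had a median of 0.20 on the scaled pileup, and their local background was higher in sgSNHG1 by the same log2 value, 0.20. For the other 8 genes the regional median of the scaled pileup lay between -0.06 and 0.06. Relative to its region, the scaled pileup of the TUBB3 promoter had a log2 ratio of -0.18. The strongest control peak near TUBB3, at the promoter of the pseudogene AFG3L1P, had 7.03 in control and 4.99 in sgSNHG1. The strongest sgSNHG1 peak there, at the promoter of DEF8, had 5.55, and 3.90 in control.

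GAP43 encodes the growth-associated protein of axon terminals. It lies on the plus strand of chromosome 3 at 115623510 to 115721490 with 1 annotated start. Its promoter peak had 5.92 (29 fragments) in control and 4.55 (17 fragments) in sgSNHG1, for a log2 ratio of -0.38 (SE 0.44), and was 426 bp wide in control and 126 bp in sgSNHG1, with summits 6 and 9 bp before the start. The strongest near peak of all 9 genes lay in a GAP43 intron 90 kb after the start, with 15.4 (112 fragments) in control and 13.2 (70 fragments) in sgSNHG1, for a log2 ratio of -0.22. A peak 39 kb beyond the end of the gene had 11.8 and 8.55, for a log2 ratio of -0.47. Of the 7 pairs near GAP43, 6 were lower in sgSNHG1, with a median of -0.31, while the pairs of the surrounding 10 Mb had a median of -0.01. Control peaks in GAP43 at 115655891 (4.95, 34 fragments) and 115676245 (6.24, 22 fragments) had no counterpart, and both had a -log10 q of at least 10.

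For GAP43, 3 sequences are printed on the plus strand to set its promoter beside its strongest peak and a peak seen in control alone. The part of the control promoter peak before the start is chr3:115623383-115623509. It is a purine-rich stretch with a GC content of 54.3% that holds none of the motifs searched. The intronic summit, chr3:115713309-115713509, has a GC content of 50.2% and a CAGCTG E-box in capitals. The peak without a counterpart, chr3:115655891-115656088, has a GC content of 44.4%, no CpG and none of the motifs.
GAP43 promoter peak: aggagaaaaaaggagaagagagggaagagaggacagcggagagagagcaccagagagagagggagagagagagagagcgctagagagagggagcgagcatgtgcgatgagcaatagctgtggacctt
GAP43 strongest intronic peak: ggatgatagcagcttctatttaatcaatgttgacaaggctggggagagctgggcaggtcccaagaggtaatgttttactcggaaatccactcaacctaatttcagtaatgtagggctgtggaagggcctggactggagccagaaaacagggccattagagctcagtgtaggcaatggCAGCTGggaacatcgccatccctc
GAP43 control intronic peak without a counterpart: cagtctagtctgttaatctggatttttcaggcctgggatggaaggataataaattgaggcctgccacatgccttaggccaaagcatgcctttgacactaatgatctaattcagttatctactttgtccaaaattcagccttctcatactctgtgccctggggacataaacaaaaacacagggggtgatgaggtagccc

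STMN2 encodes stathmin-2, a tubulin-binding protein of growth cones. It lies on the plus strand of chromosome 8 at 79611117 to 79666158, and it had 3 promoter peaks in each list, all shared. The peak at the start had 4.55 (60 fragments) in control and 3.72 (35 fragments) in sgSNHG1, for a log2 ratio of -0.29. The intronic peak next to it had 4.01 and 4.10, for a log2 ratio of 0.03. The highest, an intronic peak 1.1 kb after the nearest start, had 5.50 (74 fragments) and 5.20 (50 fragments), for a log2 ratio of -0.08 (SE 0.26). The pileups were among the largest of the 9 genes while the fold enrichments were modest, and the local background of the highest peak was 5.73 times the genome-wide background in control and 5.13 times in sgSNHG1. A peak deeper in the gene had 6.93 in control and 6.15 in sgSNHG1, and a peak at its 3′ end had 5.40 and 3.61, for a log2 ratio of -0.58.

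**Figure D2:**
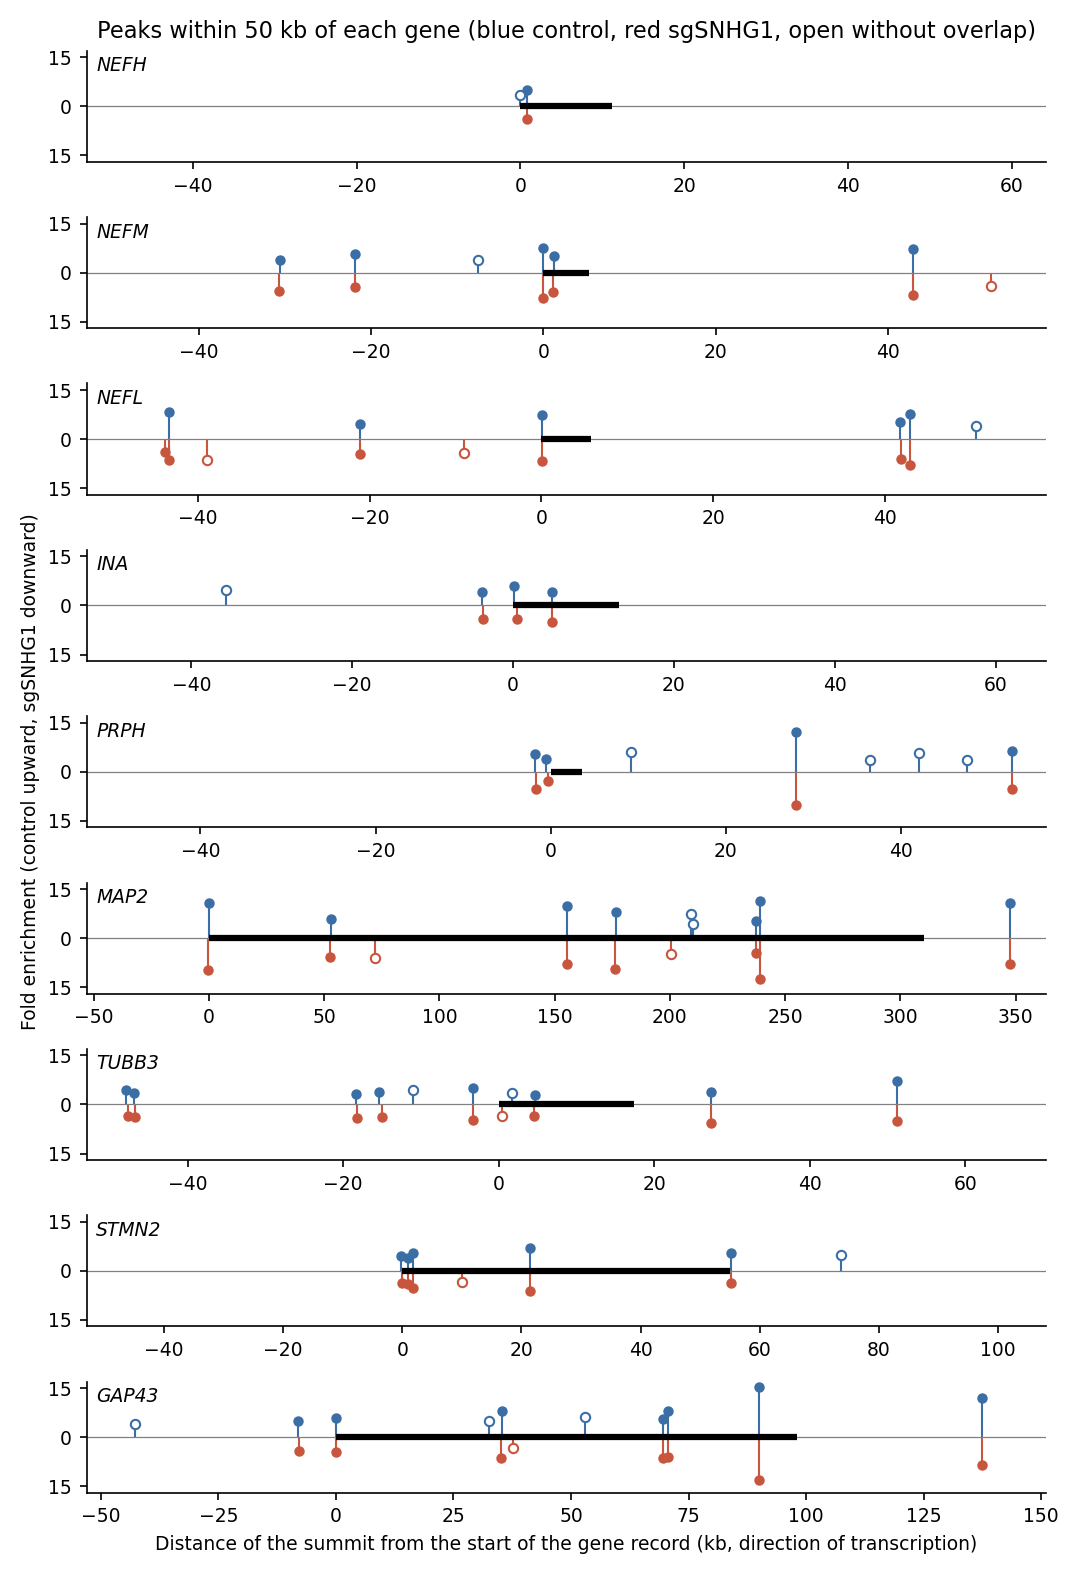
Peaks within 50 kb of each gene, placed by the distance of the summit from the start of the gene record in kb, with the gene as a black bar; stems give fold enrichment, control upward in blue and sgSNHG1 downward in red. Open circles are peaks without an overlapping peak in the other list, such as 4 of the 8 control peaks near PRPH, beside 33.3% of all control peaks. The tallest stem is the GAP43 intronic peak at 15.4 in control.

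Over all 9 genes, 42 of 57 control peaks overlapped an sgSNHG1 peak, 73.7% (95% exact interval 60.3 to 84.5%), and 43 of 50 sgSNHG1 peaks overlapped a control peak, 86% (73.3 to 94.2%). The 15 control peaks without a counterpart are 26.3% of the near peaks, beside 33.3% of all control peaks, and the 7 of sgSNHG1 are 14%, beside 21.8%. Of the near peaks of control, 57.9% (44.1 to 70.9%) lay at a promoter of some gene, beside 45.8% of all control peaks, and the windows were drawn around genes, which includes promoters by construction. Outside promoters the overlap was 58.3% (14 of 24) beside 59.0% of all control peaks, and at promoters 84.8% (28 of 33) beside 75.8%. Of the 31 control near peaks with a -log10 q of at least 10, 4 had no counterpart, or 12.9%, beside 8.72% of all such control peaks. These were the C1QL4 promoter near PRPH, the MAP2 intronic peak at 209633202 and the GAP43 peaks at 115655891 and 115676245. The near peaks covered 23.9 kb in control and 15.9 kb in sgSNHG1, for a log2 ratio of -0.59, beside -0.58 for all peaks. Peak width took most of that difference, since peak numbers had a log2 ratio of -0.19 near the 9 genes and -0.16 over all peaks. Whether a peak is called depends on the threshold and depth of its list. The genome-wide background was 2.20 fragments in control and 1.72 in sgSNHG1. The part of depth in peak width and in peaks without a counterpart was not tested.

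Of the 42 pairs near the 9 genes, 29 were lower and 13 higher in sgSNHG1, or 69.0% lower (52.9 to 82.4%), beside 55.6% of all 31663 pairs. At a log2 ratio of -0.5 or below there were 2, the NEFL upstream pair and the pair at the 3′ end of STMN2, 4.76% beside 9.06% of all pairs. At 0.5 or above there was 1, near TUBB3, 2.38% beside 5.37%. The median log2 ratio was -0.15 (quartiles -0.36 and 0.06), beside -0.05 for all pairs (quartiles -0.27 and 0.17). On the scaled pileup the medians were -0.16 and -0.01. The sgSNHG1 peak was the narrower of the pair in 33 of 42, 78.6%, beside 79.8% of all pairs. By gene, the lower pairs were 4 of 4 near PRPH, 6 of 7 near GAP43, 4 of 5 near STMN2, 5 of 7 near MAP2 and 4 of 8 near TUBB3. On fold enrichment INA, with 1 of 3 lower, and NEFM, with 2 of 5, had more pairs higher than lower. NEFL had 3 of 5 lower and NEFH its single pair, and the 3 pairs near both NEFM and NEFL count here for each. On the scaled pileup 61.9% of the 42 pairs were lower, and the direction by gene was different for INA (2 of 3 lower), NEFL (2 of 5 lower) and TUBB3 (2 of 8 lower).

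**Figure D3:**
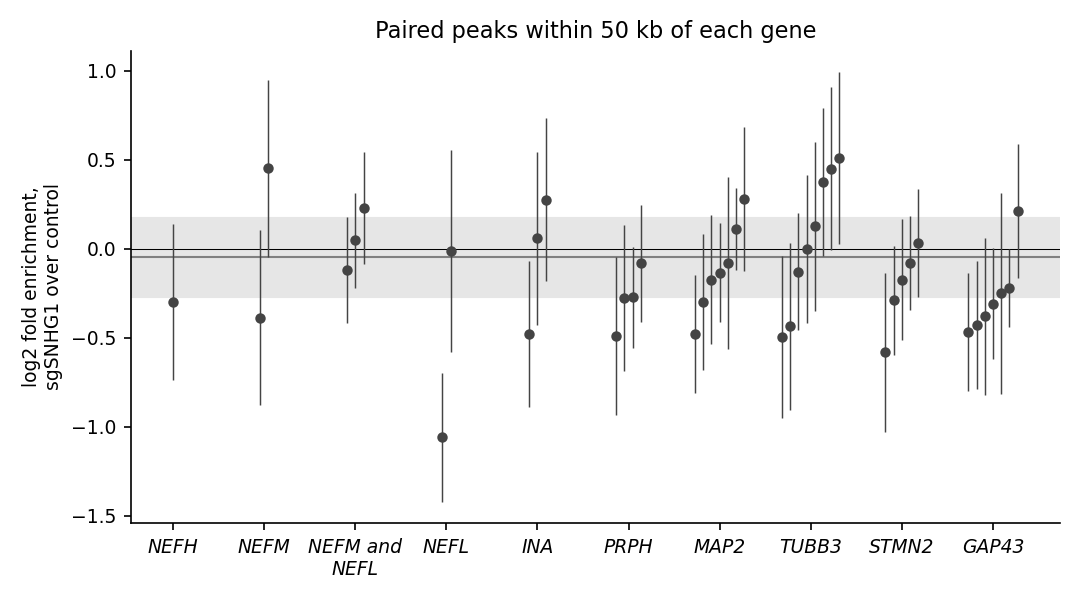
log2 fold enrichment of sgSNHG1 over control for the 42 pairs of overlapping peaks near each gene, with 1 SE of counting as bars; the 3 pairs within 50 kb of both NEFM and NEFL have a column of their own. The grey band spans the quartiles of all 31663 pairs and the grey line is their median of -0.05, and the pair upstream of NEFL at -1.06 is the lowest point.

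The 2 scales differ in the local background and in the 1 that fold enrichment adds to pileup and background. A gap between them can reflect both. Of the protein-coding genes, 60.4% were lower in sgSNHG1 on fold enrichment and 54.4% on the scaled pileup. The promoter log2 ratio was lower on the scaled pileup than on fold enrichment for 7 of the 9 genes and higher for NEFH and NEFM, and its sign was the same for all 9. STMN2 moved most, from -0.08 to -0.21. The regional medians on fold enrichment ranged from -0.07 to -0.01, so that INA at -0.48, GAP43 at -0.38 and NEFH at -0.30 lay further below 0 than their regions, each within about 1 SE.

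**Figure D4:**
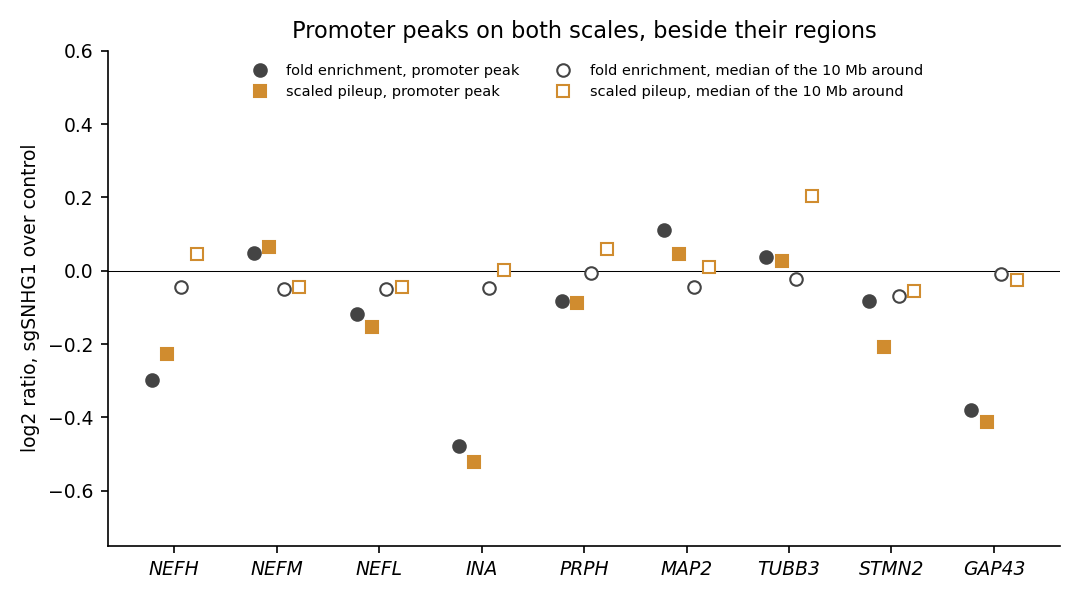
log2 ratio of sgSNHG1 over control for the promoter peak of each gene (filled) and for the median pair of the 10 Mb around it (open), on fold enrichment (circles) and on the scaled pileup (squares). Promoter points run from -0.52 (INA, scaled pileup) to 0.11 (MAP2, fold enrichment), and the open square of TUBB3 at 0.20 stands apart from those of the other genes.

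A sequence feature was common to 5 of the 9 genes. REST, a repressor that silences neuronal genes in other tissues, binds the RE1 element. Its core was searched as AGCACC and GGACAG spaced by 2 bases, on both strands, with at most 1 letter of the 12 differing. Within 3 kb of the start of the gene record, 5 of the 9 genes held it (55.6%), namely GAP43, INA, NEFH, NEFM and STMN2, beside 7.54% of 19961 protein-coding genes. STMN2 held 2 matches, which makes 6 in all. None of the 6 lay under a peak in either list. How often such matches lie under a peak at other protein-coding genes was not counted, so nothing is read from this. The GAP43 match came within 6 bp of a control peak and within 197 bp of an sgSNHG1 peak, and the nearer STMN2 match within 163 bp and 206 bp. The other 4 lay 631 to 2262 bp from a peak. In summit windows the core was rare throughout, 0.342% of all control peaks, and it was in none of the 57 control and 50 sgSNHG1 near peaks. A match of letters is no measurement of binding.

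Matches in GAP43, INA and NEFH are printed on the strand of the match, with capitals for letters equal to the core. The GAP43 match (chr3:115623814-115623827, minus strand) is in an intron 311 bp after the start, the INA match (chr10:103279012-103279025, minus strand) in an intron 1881 bp after it, and the NEFH match (chr22:29478679-29478692, minus strand) 1532 bp upstream of the gene.
GAP43 RE1 core: AGCACCacGGcCAG
INA RE1 core: AGCACCgtGGACAG
NEFH RE1 core: AGCACCggGGACAG

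Motifs within 100 bp of the summits of the promoter peaks gave small counts. The GC box was in 9 of 18 control peaks (50%, beside 45.7% of promoter peaks of any gene) and in 5 of 17 sgSNHG1 peaks (29.4%, beside 47.8%). The E-box CAGCTG, a form read by neuronal bHLH factors, was in 1 of 18 control peaks (5.56%, beside 16.5%) and in 4 of 17 sgSNHG1 peaks (23.5%, beside 17.1%). Motifs were not compared at matched sites. CATCTG was in 3 of 18 control peaks (16.7%, beside 14.0%) and 2 of 17 sgSNHG1 peaks (11.8%, beside 13.5%). CACGTG was in none (beside 6.06%) and in 1 (5.88%, beside 6.20%). The AP-1 element was in 1 (5.56%, beside 3.13%) and in 2 (11.8%, beside 3.74%). In the 300 bases from 250 before to 50 after the start, the GC content of the 9 genes ran from 52% (STMN2) to 81.3% (MAP2), with a median of 67% beside 60.3% for protein-coding genes.

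A wider list of 37 cytoskeleton and neurite genes was read in the same way. In both lists 30 had a promoter peak, with 16 lower (53.3%, beside 60.4% of protein-coding genes) and 14 higher in sgSNHG1. The median log2 ratio was -0.04, beside -0.07. Of the 30, 2 lay at -0.5 or below (6.67%, beside 7.33%) and 1 at 0.5 or above (3.33%, beside 2.01%). None differed by more than 2 SE. TUBB6, a beta-tubulin of many tissues (7.18 in control), and DCX, the microtubule protein doublecortin of migrating neurons (4.99 in control), had a promoter peak in control alone, 2 of 32, or 6.25%, beside 8.47% of protein-coding genes. GFAP and DES, filament proteins of glia and muscle, the keratins KRT8 and KRT18, and TUBB4A had none in either list. Of the genes past the fold limit, BASP1, a membrane protein of growth cones, had 6.77 (44 fragments) in control and 4.13 (17 fragments) in sgSNHG1, for a log2 ratio of -0.71 (SE 0.41). MAP6, which stabilizes microtubules against cold, had 6.14 and 4.14, for a log2 ratio of -0.57 (SE 0.37). CRMP1, a collapsin response mediator, had 3.65 and 5.19, for a log2 ratio of 0.51 (SE 0.34). The highest control values were those of its relative DPYSL3 (11.3, and 8.62 in sgSNHG1) and of the stathmin STMN4 (9.92, and 11.3 in sgSNHG1).

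By group and on fold enrichment, 4 of 5 other intermediate filament genes with values were lower and LMNA was higher, the tubulins were 3 lower and 3 higher, the microtubule-associated and stathmin genes 5 lower and 4 higher, and the growth cone and neurite genes 4 lower and 6 higher. On the scaled pileup these groups had 4, 3, 6 and 5 lower genes, and LMNA, NES, STMN4 and ANK2 had the opposite sign. The median of the tubulins was -0.06 on fold enrichment and 0.02 on the scaled pileup, and that of the growth cone and neurite genes 0.09 and -0.06, so the sign of both medians depended on the scale. L1CAM, an axonal adhesion molecule on the X chromosome, had a log2 ratio of 0.14 on fold enrichment and 0.88 on the scaled pileup.

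**Figure D5:**
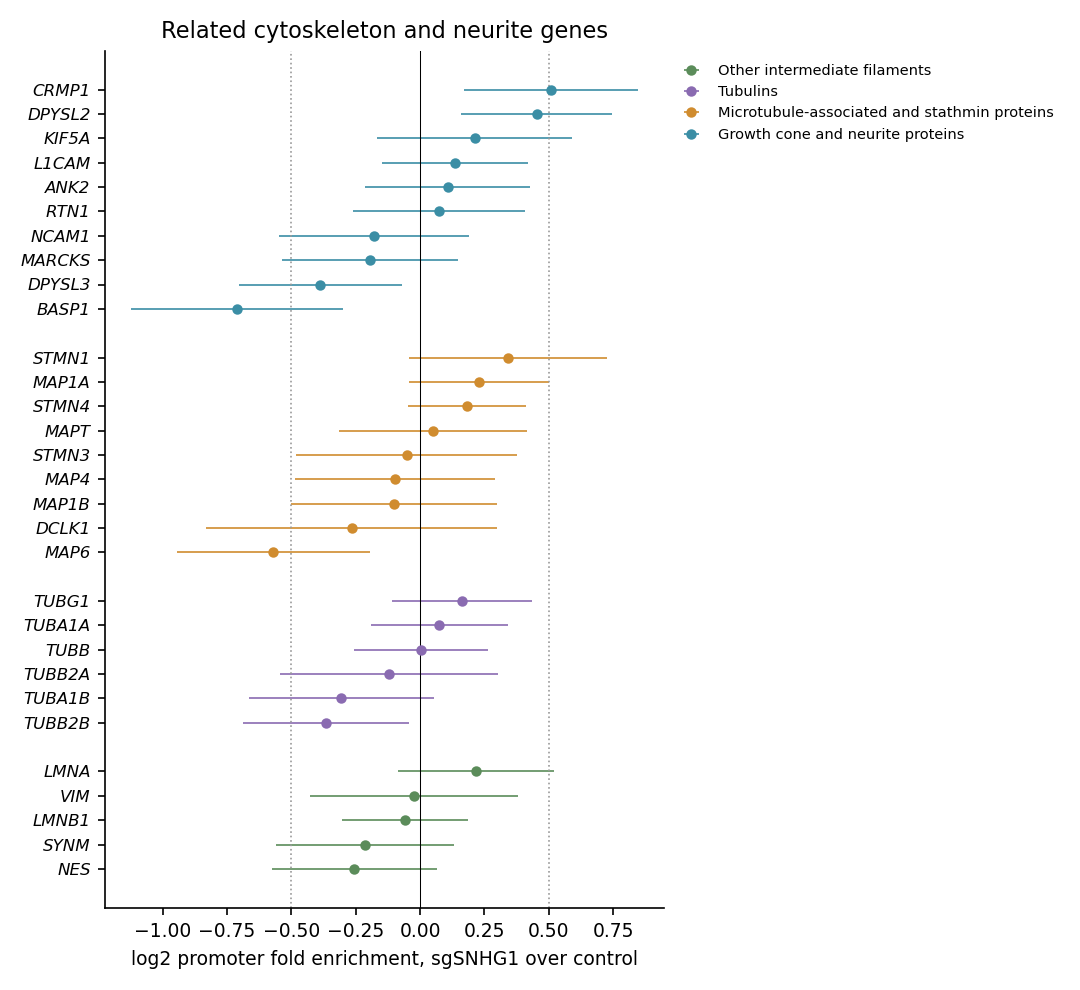
log2 promoter fold enrichment of sgSNHG1 over control for the 30 related genes with a promoter peak in both lists, coloured by group, with 1 SE of counting as bars and dotted lines at the fold limit of 0.5. BASP1 (-0.71) and MAP6 (-0.57) lie beyond the lower line, CRMP1 (0.51) at the upper one, and every group has genes on both sides of 0.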

How the data were processed

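ATAC-seq of 4 samples (2 control, 2 sgSNHG1) was analysed from 2 deposited peak lists on GRCh38, 1 per group. Per the study's methods and the labels, the authors trimmed reads with cutadapt, aligned them with BWA, filtered duplicates marked with Picard, shifted cut sites with deepTools, pooled replicates and called peaks with MACS2. Versions and the MACS2 threshold were not given in the sources used here. Pooling hides peaks that rest on 1 library, and removal of duplicates lowers the deepest peaks. Each deposited peak has a score, a ratio (fold enrichment over the local background of its list), a −log10 p and a −log10 q. In the deposited files the score equals 10 times the −log10 q, up to a cap of 1000. Pileup and local background were solved from fold enrichment and −log10 p, to within 0.001 for 47609 of 47610 control and 42682 of 42682 sgSNHG1 peaks. The procedure returned the pileup of 100% of 20000 simulated peaks. The smallest background (2.20 fragments in control, 1.72 in sgSNHG1) scaled the pileups. Peaks overlapping by at least 1 bp were shared, and mutual best overlaps were pairs. Shares have exact (Clopper-Pearson) 95% intervals for counting error only. Starts and genes were taken from GENCODE 44. RefSeq promoter sequences matched 5 of the 9 genes and were not needed, since sequences were read from the genome.

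The members, lists and motifs were chosen with earlier results of these data known. Named were all 9 genes and some of the genes whose promoter held a peak near a member. Related genes were named if past the fold limit, with a peak in 1 list or in none, or with the 2 highest control values. Some were also named where the 2 scales differed. Python 3.11.15, numpy 2.4.6, pandas 2.3.3 and scipy 1.17.1 were used. A few withheld items go unreported here. No replicate spread exists, so no test between groups was made.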

Additional observations from a re-analysis of the deposited data

How the results depend on the processing

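No paired analysis was possible because replicates were pooled before peaks were called, and for the same reason no replicate could be left out. Requiring a −log10 q of at least 10 reduced the genes with a promoter peak in both lists from 9 to 5. INA and GAP43 then had one in control alone, and NEFH and TUBB3 in neither list. The near peaks were reduced to 31 in control and 21 in sgSNHG1. Of all peaks, 24040 of 47610 in control and 18603 of 42682 in sgSNHG1 passed this limit. Counting peaks within 100 kb gave 88 and 76. When 50% of both peaks had to overlap, the shared peaks were 54.4% of control and 62% of sgSNHG1 near peaks. The same shares of the whole lists are not given here. At a −log10 q of at least 5 NEFH had a promoter peak in control alone. For neither q limit is the share of protein-coding genes in control alone given here. The median log2 ratio of the promoters stayed between -0.15 and -0.08, and 5 to 8 genes were lower. PRPH ran from -0.49 (with a promoter window of 1 kb) to -0.08 and INA from -0.53 to -0.48, both below 0 throughout. MAP2 ran from -0.14 to 0.11 and TUBB3 from -0.18 to 0.38. The direction of MAP2 and TUBB3 thus depended on the peak or scale chosen. With all promoter peaks summed NEFH had -1.08, since only 1 of its 2 control peaks had a counterpart. None of the 62 alternative values of single genes moved by more than the counting interval. The regional scaling was chosen after seeing the data. Pileups of 17 to 87 fragments limit what single genes can show.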
